A study of Caenorhabditis elegans with 6 samples.

Results

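The genes described here encode 3 families of secreted signalling peptides of the nematode Caenorhabditis elegans: FMRFamide-like peptides (flp), neuropeptide-like proteins (nlp) and insulin-like peptides (ins). Members were chosen by name, with earlier results of these data known. The names were flp, nlp or ins followed by a number, leaving out nlp-27 to nlp-34, which are known mainly as antimicrobial peptide genes of the epidermis. Of the 46926 genes in the deposited table, 144 matched the names and 136 were kept: 31 flp, 67 nlp and 38 ins genes. RNA came from whole wild-type animals (strain N2), late L4 larvae to young adults, held in liquid NGM buffer with heat-treated OP50 bacteria as food. The animals of 3 libraries received 25 µM chaetocin, a toxin from fungi that is applied to block lysine methyltransferases, for 5 h, and those of the other 3 received its vehicle DMSO.

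Neuropeptides are cut from larger precursors by the proprotein convertase EGL-3 and the carboxypeptidase EGL-21, and many are then amidated. They are packed into dense core vesicles, whose release needs UNC-31, and most act on G protein-coupled receptors, often far from the cell that made them. Insulin-like peptides leave neurons, intestine and other tissues and act on a single insulin receptor, DAF-2, as agonists or antagonists, and DAF-2 signalling keeps the transcription factor DAF-16 out of the nucleus.

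Values are FPKM, fragments scaled by transcript length and library size, so levels may be compared between genes. The 6 libraries summed to between 1232966 and 1326067 FPKM, with 18747 to 18933 genes above 0. Correlations of log2 values between libraries were 0.9753 to 0.9817 within the groups and 0.9598 to 0.9647 between them. Depth in fragments is unknown, and although the libraries are labelled as biological replicates, separate cultures are not stated, so a p-value reflects only how these libraries vary.

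Of the 136 genes, 123 had at least 0.5 FPKM in at least 3 libraries and were tested. Another 6 were listed at 0 in every library (flp-23, ins-8, ins-13, ins-16, ins-19 and ins-32). The remaining 7 lay under the filter (ins-15, ins-20, ins-31, ins-39, nlp-22, nlp-23 and nlp-25). With chaetocin nlp-26, ins-35, nlp-40 and flp-10 rose, and ins-9, ins-7, flp-7 and nlp-77 fell: 4 members in each direction (limma, adjusted p under 0.05 over all 15213 genes tested), which is 6.5% of the tested members. Among all tested genes 8.45% passed, 5.53% of them higher and 2.92% lower, so the members' share lay near the background. Of the members that passed, ins-9 met the filter only through its DMSO libraries. For 84 of the 123 (68.3%) the 95% interval of the fold change lay within 1.5-fold in either direction, beside 66.5% of all tested genes. The members' median log2 fold change was 0.014, beside -5.09e-04 over all genes. On FPKM as deposited, the values printed here, the 3 chaetocin libraries did not overlap the 3 DMSO libraries in 25 tested members (20.3%), beside 27% of all tested genes. On FPKM scaled as for the test this held for 29 members (23.6%), beside 26.1% of all tested genes, and 23 members were in both counts. Overlap of single genes is given below on FPKM as deposited. An unadjusted p under 0.05 was found for 23 members (18.7%) and 20.4% of all tested genes. In whole animals, fewer cells of a type and less RNA per cell cannot be told apart.

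**Figure D1:**
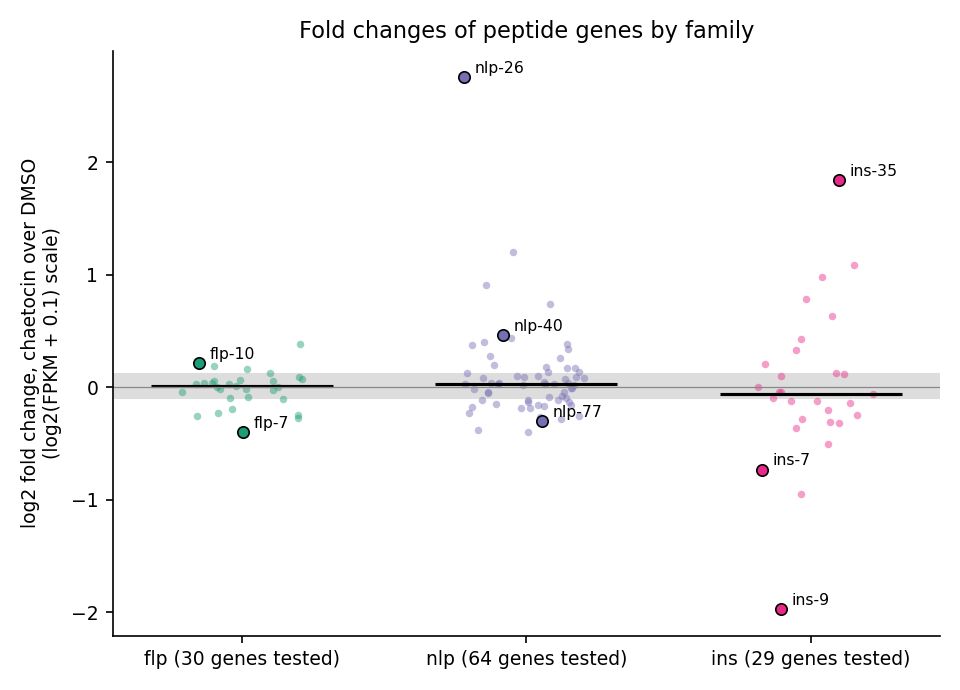
Log2 fold change of each tested peptide gene (points), by family, on the log2(FPKM + 0.1) scale, chaetocin over DMSO, 3 libraries each. Black lines are family medians, the grey band runs from the lower to the upper quartile of all 15213 tested genes (-0.10 to 0.12), and outlined, named points passed the threshold. The flp points stay between -0.40 and 0.39, while nlp-26, ins-35 and ins-9 lie farthest from 0.

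The summed level of each family was close in both groups. The flp genes together stood at 925, 946 and 1005 FPKM in DMSO replicates 1 to 3 and at 978, 919 and 977 FPKM in chaetocin replicates 1 to 3. The nlp genes summed to 1667, 1668 and 1822 FPKM in DMSO and to 1859, 1771 and 1838 FPKM with chaetocin. The ins genes summed to 174, 189 and 189.6 FPKM in DMSO and to 193, 172 and 190.2 FPKM with chaetocin. In each family the ranges of the groups overlapped. All 136 genes together came to 2862 ± 136 FPKM in DMSO and 2966 ± 91 FPKM with chaetocin (mean ± SD, n = 3 each). The families lie at different levels: the median tested flp gene stood at 22.4 FPKM over the 6 libraries, the median nlp gene at 12.2 FPKM and the median ins gene at 4.03 FPKM.

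**Figure D2:**
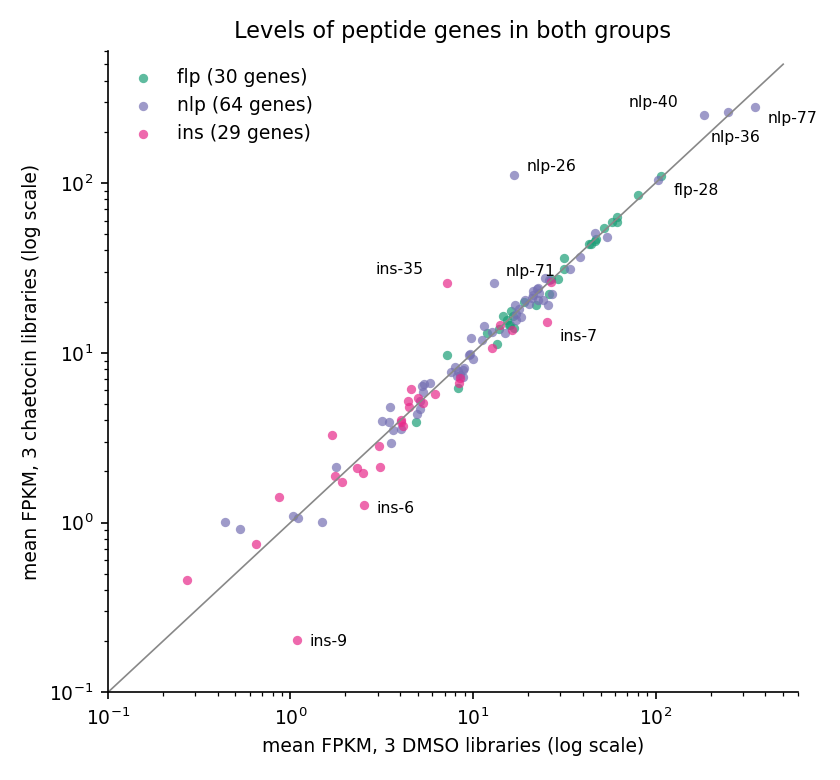
Mean FPKM of each tested peptide gene in the 3 DMSO libraries (x axis, log scale) and the 3 chaetocin libraries (y axis, log scale), coloured by family, with the line of equal levels. Most genes lie on the line, with nlp-26 (16.8 to 111 FPKM) and ins-35 (7.17 to 25.9 FPKM) above it and ins-9 (1.09 to 0.203 FPKM) below it.

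Most of the flp genes were measured with little spread. Of the 30 tested, flp-10 rose and flp-7 fell, and 5 (16.7%) had an unadjusted p under 0.05, beside the 20.4% of all tested genes. The median log2 fold change of the family was 0.0075 and its median SE 0.078. For 28 of the 30 (93.3%) the 95% interval of the fold change lay within 1.5-fold in either direction. The same held for 48 of 64 nlp genes, with a median SE of 0.11, and for 8 of 29 ins genes, with a median SE of 0.21, and the lower levels of the ins genes stand beside that wider spread. Among members of at least 10 FPKM the share was 86.6%, and 46.4% among those below, beside 90.9% and 40.4% of all tested genes.

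Among flp genes, flp-28 was the most abundant, at 100.01, 108.6 and 113 FPKM in DMSO and 112, 109 and 109 FPKM with chaetocin. Next was flp-1, a neuropeptide gene of the AVK interneurons that shapes locomotion, at 78.4, 81.6 and 80.5 FPKM in DMSO and 88.1, 79.9 and 85.3 FPKM with chaetocin. The groups overlap for both, and the log2 fold change of flp-1 was 0.09 ± 0.039 (SE; 95% interval -0.0031 to 0.18; limma adjusted p = 0.2596). Over the 6 libraries flp-28, flp-1 and the next gene, flp-22, did not overlap each other in range, while flp-22, flp-14, flp-9 and flp-12 each overlapped the next in the order.

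The increase of flp-10 was small and narrow. It was at 31.4, 31.7 and 31.7 FPKM in the DMSO libraries and at 35.8, 35.6 and 37.5 FPKM in the chaetocin libraries. The groups do not overlap, and the fitted difference was 0.21 ± 0.039 on the log2 scale (SE; limma adjusted p = 0.01807). Leaving out DMSO replicate 1 or 2 ended the call (limma adjusted p of 0.0633 and 0.058), as did leaving out chaetocin replicate 2 or 3 (0.0851 and 0.0745).

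The gene flp-7, whose tachykinin-like peptide acts on the receptor NPR-22 in the intestine to raise fat loss, was lower with chaetocin. It stood at 8.53, 8.42 and 7.90 FPKM in DMSO and at 6.33, 5.95 and 6.31 FPKM with chaetocin, again with no overlap, a log2 fold change of -0.40 ± 0.075 and an adjusted p of 0.02105 (limma). Leaving out DMSO replicate 1 or 2 (0.0802 and 0.0888) or any chaetocin library (0.0673, 0.0708 and 0.0641 for replicates 1 to 3) ended this call.

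Peptides with a known part in sleep and arousal did not pass the test. flp-11, which the RIS sleep neuron uses, stood at 45.4, 42.2 and 45.2 FPKM in DMSO and 43.8, 40.5 and 46.2 FPKM with chaetocin (log2 fold change -0.01 ± 0.052, limma adjusted p = 0.9313). flp-13, which the ALA neuron uses in stress-induced sleep, stood at 10.04, 10.9 and 14.9 FPKM in DMSO and 15.1, 11.1 and 13.2 FPKM with chaetocin (0.16 ± 0.16, limma adjusted p = 0.6478). nlp-8, also used by ALA, stood at 17.8, 16.9 and 19.9 FPKM in DMSO and 16.6, 14.9 and 16.9 FPKM with chaetocin (-0.16 ± 0.069, limma adjusted p = 0.259). For flp-11 and flp-13 the groups overlap, and for nlp-8 they do not. nlp-22, of the RIA neurons, was listed at 0.37 FPKM in DMSO replicate 2 and at 0 in the other libraries. Of 6 listed sleep peptides 5 were tested and 0 passed, none with an unadjusted p under 0.05 (limma), and their median log2 fold change was -0.0022. flp-18 and flp-21, which supply ligands of the receptor NPR-1 in feeding and aggregation behaviour, had adjusted p of 0.788 and 0.7012 (limma).

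Among tested members, the largest fold change was that of an nlp gene, nlp-26. Of 64 tested, nlp-26 and nlp-40 rose and nlp-77 fell (limma), 12 (18.8%, beside 20.4% of all tested genes) had an unadjusted p under 0.05, and the family's median log2 fold change was 0.03. Before the test, nlp-26 stood at 15.7, 13.5 and 21.2 FPKM in DMSO and at 118.8, 117 and 98.1 FPKM with chaetocin. Every chaetocin library lay far above every DMSO library, and the mean was 6.62-fold higher. The log2 fold change was 2.76 ± 0.16 with an adjusted p of 7.965e-05 (limma). The gene (WBGene00003764) spans 19613461 to 19614534 on the plus strand of chromosome V in the WBcel235 build. It shares 29 exon bases with Y43F8C.3 on the opposite strand, whose own log2 difference was 0.0072 (limma adjusted p = 0.9657), and reads of the overlapping stretch may not have been told apart by strand.

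nlp-40 encodes a peptide that the intestine releases in the defecation rhythm and that acts on the receptor AEX-2. It stood at 179, 185 and 187 FPKM in DMSO and at 238, 272 and 241 FPKM with chaetocin. Its groups do not overlap, the mean was 1.36-fold higher and the log2 fold change was 0.46 ± 0.063 (limma adjusted p = 0.005056). The gene (WBGene00022276) lies on chromosome I from 11495 to 16837.

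nlp-77, the most abundant member, moved the other way. It stood at 338, 331 and 381 FPKM in DMSO and at 292, 268 and 282 FPKM with chaetocin, without overlap. The log2 fold change was -0.30 ± 0.048 (limma adjusted p = 0.01014). It is named srlf-1 in the Ensembl annotation (WBGene00015514) and lies inside glr-4 on the opposite strand with no shared exon bases, on chromosome II from 7790591 to 7791375.

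**Figure D3:**
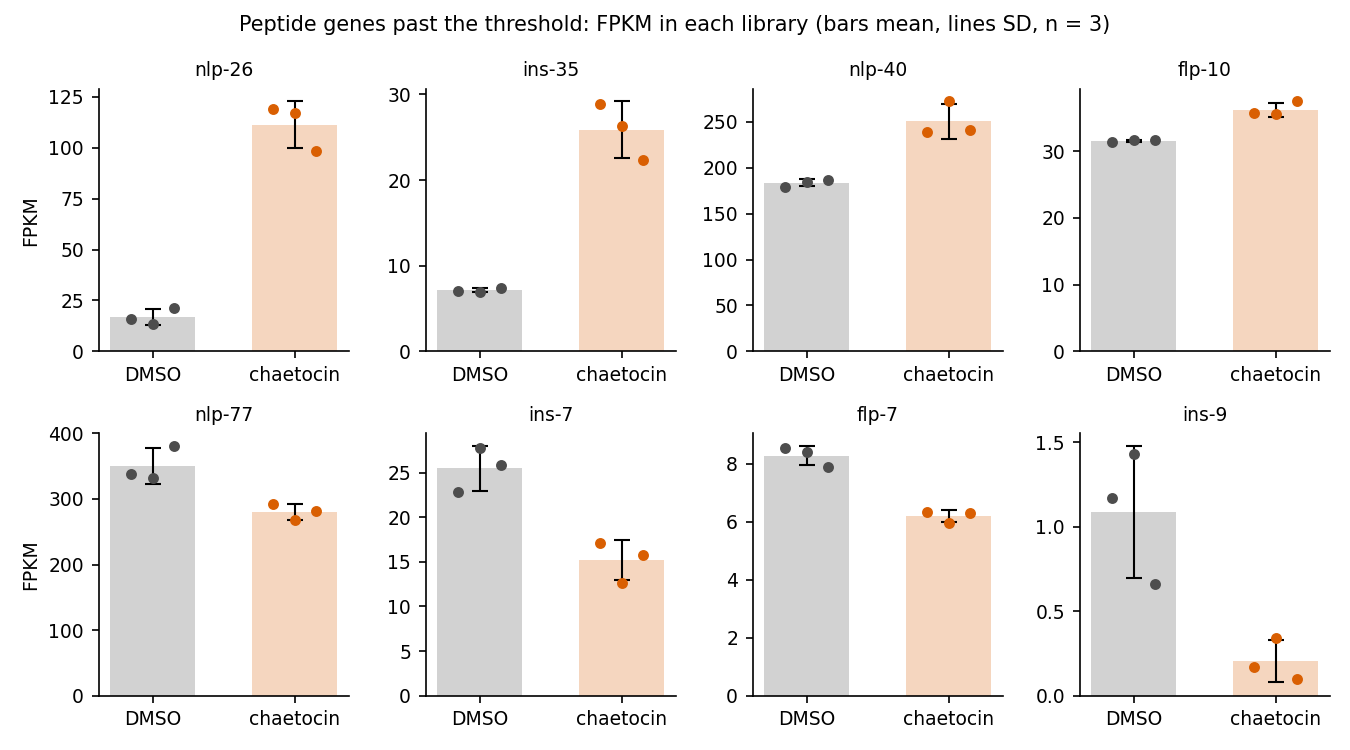
FPKM of the 8 peptide genes past the threshold in each library (points, replicates 1 to 3 from left to right), with bars for the mean and lines for the SD, n = 3 per group. The upper row holds the 4 genes that were higher with chaetocin and the lower row the 4 that were lower, and in none of them do the groups overlap.

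Other abundant nlp genes did not pass. nlp-36 stood at 257, 239 and 249 FPKM in DMSO and 264, 259 and 258 FPKM with chaetocin, with no overlap but only a narrow gap (256.88 against 257.7 FPKM), and overlapping groups once the libraries were scaled (0.08 ± 0.037, limma adjusted p = 0.259). nlp-49, whose peptide acts on the receptor SEB-3, had a log2 fold change of 0.02 ± 0.054. nlp-12, the cholecystokinin-like gene of the DVA neuron, stood at 25.1, 26.7 and 29.4 FPKM in DMSO and 25.3, 19.97 and 21.1 FPKM with chaetocin (-0.28 ± 0.091, limma adjusted p = 0.1379), with overlapping groups. It passed without chaetocin replicate 1 (-0.37, limma adjusted p = 0.03476). Among genes of low level, nlp-60 (0.19, 0.27 and 0.86 FPKM in DMSO, 0.65, 1.31 and 1.05 FPKM with chaetocin) had a log2 fold change of 1.203 ± 0.49 and did not pass (limma adjusted p = 0.2327), but passed without DMSO replicate 3 (1.70, limma adjusted p = 0.04536).

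nlp-20 stood at 50.9, 52.02 and 59.4 FPKM in DMSO and 50.8, 43.4 and 49.7 FPKM with chaetocin, lower in every chaetocin library but not past the threshold (-0.16 ± 0.068, limma adjusted p = 0.2577). In the order of levels, nlp-77 lay above nlp-36 over the 6 libraries without overlap, and nlp-36 lay above nlp-40 in DMSO, while with chaetocin these overlapped.

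Across the 3 families, 17 tested members had groups that do not overlap on FPKM as deposited and did not pass the threshold, 7 with chaetocin above and 10 with chaetocin below, at adjusted p between 0.08869 and 0.413 (limma). On scaled FPKM there were 21, 9 above and 12 below. Among them, and named after their values were seen, flp-8 stood at 21.5, 22.2 and 22.8 FPKM in DMSO and 18.3, 18.95 and 20.3 FPKM with chaetocin. nlp-79 stood at 8.99, 9.21 and 11.1 FPKM in DMSO and 11.6, 13.4 and 11.6 FPKM with chaetocin. In both genes every chaetocin library lies on 1 side of all DMSO libraries, and neither passed. With the genes that passed included, such separation was found in 20.3% of tested members, beside 27% of all tested genes. On scaled FPKM these shares were 23.6% and 26.1%. No share over all genes was taken for those that did not pass.

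The ins genes were the least abundant and the most variable family. Of 29 tested, ins-35 rose and ins-7 and ins-9 fell (limma), 6 (20.7%, beside 20.4% of all tested genes) had an unadjusted p under 0.05, and the median log2 fold change was -0.06. ins-35 stood at 7.09, 6.97 and 7.46 FPKM in DMSO and at 28.9, 26.4 and 22.3 FPKM with chaetocin. All chaetocin libraries were well above all DMSO libraries, with a mean 3.61-fold higher (1.84 ± 0.098 on the log2 scale, limma adjusted p = 6.447e-05). The gene (WBGene00002118) spans 20375536 to 20376302 on the plus strand of chromosome V.

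ins-7, an agonist of DAF-2 made in the intestine and in neurons, was lower. It stood at 22.8, 27.8 and 25.9 FPKM in DMSO and at 17.1, 12.7 and 15.8 FPKM with chaetocin, with no overlap and a mean 1.68-fold higher in DMSO. The log2 fold change was -0.73 ± 0.12 (limma adjusted p = 0.01039), and the gene (WBGene00002090) lies on chromosome IV from 9682011 to 9682845. ins-9 was near the filter, at 1.17, 1.43 and 0.66 FPKM in DMSO and 0.17, 0.34 and 0.10 FPKM with chaetocin (-1.97 ± 0.42, limma adjusted p = 0.03291), and -0.78 with a pseudocount of 1. Only its DMSO libraries reached 0.5 FPKM, so ins-9 was tested only through the group where it is higher. Leaving out DMSO replicate 1 or 2 (limma adjusted p of 0.118 and 0.1221) or chaetocin replicate 1 or 3 (0.103 and 0.09) ended its call.

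The order of levels differed between the groups. In DMSO the highest means were those of ins-17 (26.9 FPKM) and ins-7 (25.5 FPKM), which overlap. There ins-35 (7.17 FPKM) lay below ins-28, ins-27 and ins-22 without overlap. Its mean was also below those of ins-34 and ins-23, whose ranges overlapped that of ins-35. With chaetocin the highest means were those of ins-17 (25.93 FPKM) and ins-35 (25.86 FPKM), which overlap, and ins-7 followed at 15.2 FPKM. ins-28 stood at 14.9, 16.4 and 17.8 FPKM in DMSO and 10.1, 14.7 and 15.8 FPKM with chaetocin (-0.28 ± 0.17, limma adjusted p = 0.4244). ins-27 stood at 16.1, 15.8 and 10.1 FPKM in DMSO and 15.5, 14.5 and 13.6 FPKM with chaetocin (0.10 ± 0.19, limma adjusted p = 0.8252). ins-22 stood at 11.1, 14.1 and 12.99 FPKM in DMSO and 12.4, 11.9 and 7.93 FPKM with chaetocin, and its groups also overlapped. In these 3 genes 1 library lies apart from the rest of its group, chaetocin replicate 1 in ins-28, DMSO replicate 3 in ins-27 and chaetocin replicate 3 in ins-22.

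Agonists and antagonists of the insulin receptor were listed from general knowledge of the field. Of 6 agonists 5 were tested, and ins-7 and ins-9 fell (40%, beside 8.45% of all tested genes), with a median log2 fold change of -0.73. An unadjusted p under 0.05 was found for 4 of the 5 (80%, limma), beside 20.4% of all tested genes. The list is short and was drawn up with earlier results of these data known. In it, ins-9 entered the test only through its DMSO libraries. Not in the list is daf-28, an insulin-like gene outside the naming rule (-0.37 ± 0.16, limma adjusted p = 0.2512). These shares hold only for the genes listed. ins-35, which rose (1.84 ± 0.098, limma adjusted p = 6.447e-05), is in neither list, so these shares leave out the largest rise among the tested ins genes. ins-6 stood at 3.41, 2.11 and 2.08 FPKM in DMSO and at 1.75, 0.76 and 1.32 FPKM with chaetocin, without overlap but not past the threshold (-0.95 ± 0.33, limma adjusted p = 0.1551). ins-4 overlapped between the groups (-0.04 ± 0.22). Of 5 antagonists 4 were tested and 0 passed, 1 with an unadjusted p under 0.05 (limma). That was ins-18, at 4.30, 4.65 and 4.73 FPKM in DMSO and 5.62, 5.51 and 7.32 FPKM with chaetocin (0.43 ± 0.12, limma adjusted p = 0.09792). The antagonist ins-1 (-0.12 ± 0.19) and the abundant ins-17 (-0.04 ± 0.11) had overlapping groups. ins-11, an intestinal peptide of pathogen avoidance behaviour, stood at 0.66, 1.86 and 2.52 FPKM in DMSO and 2.53, 4.31 and 3.01 FPKM with chaetocin (1.09 ± 0.46, limma adjusted p = 0.2501), with a log2 fold change of 0.56 without DMSO replicate 1.

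Some genes have several transcripts, whose FPKM the authors' estimation divides among isoforms. There were 31 members with at least 2 listed isoforms and 70 isoforms in all, of which 51 were tested and 2 passed (limma over 21002 transcripts), and of 145 tested member transcripts 7 passed, where 4.67% of all tested transcripts did. The 2 were ZK1251.2a.1 of ins-7 and Y74C9A.2a.1 of nlp-40. The ins-7 isoform stood at 20.6, 27.1 and 21.4 FPKM in DMSO and 14.2, 12.7 and 14.5 FPKM with chaetocin, and the nlp-40 isoform at 118, 119.7 and 129.9 FPKM in DMSO and 161, 165 and 165 FPKM with chaetocin. In 2 genes, chosen after their values were seen, a short isoform was listed in 1 or 2 chaetocin libraries and at 0 in the others. In nlp-71 it stood at 37.7 FPKM in chaetocin replicate 3 alone, where the gene was at 49.3 FPKM against 11.9 to 14.4 FPKM in the other 5 libraries. The log2 fold change of nlp-71 was 0.74 ± 0.46 (limma adjusted p = 0.4382), and 0.15 without chaetocin replicate 3. Without that isoform nlp-71 stood at 12.97 ± 1.09 FPKM in DMSO and 13.3 ± 1.47 FPKM with chaetocin. In nlp-40 it stood at 2.20 and 37.5 FPKM in chaetocin replicates 1 and 2, and without it the gene's log2 fold change was 0.39 ± 0.028 (limma adjusted p = 2.366e-04).

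**Figure D4:**
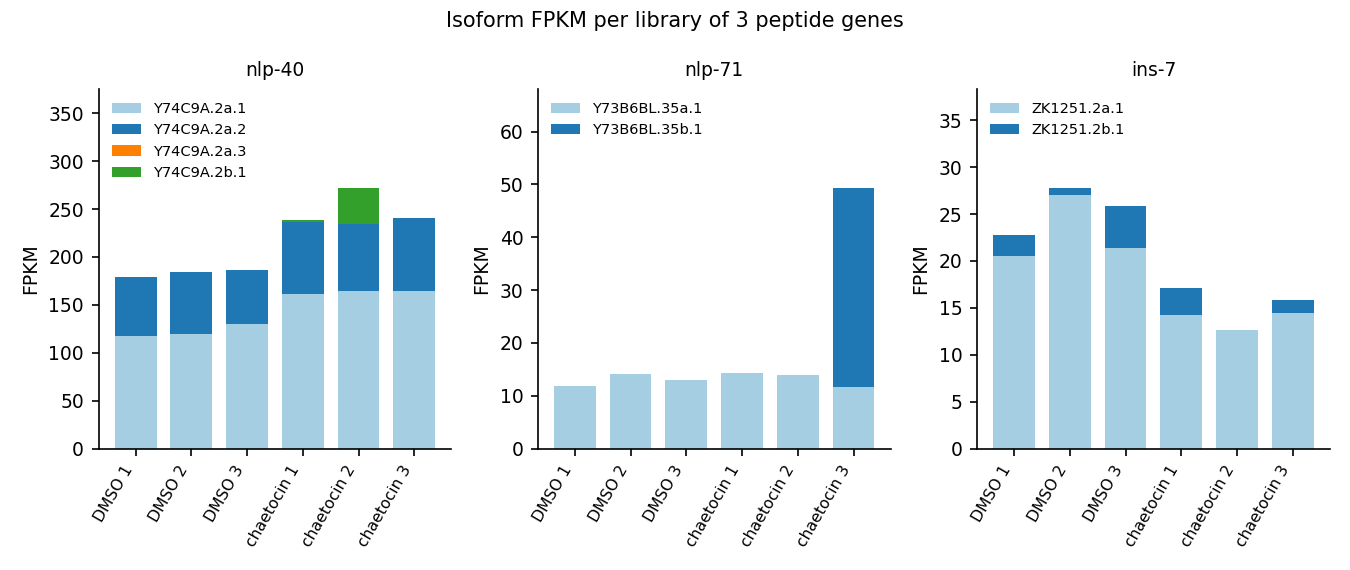
FPKM of each isoform of nlp-40, nlp-71 and ins-7 in the 6 libraries, stacked so that the bar height is the gene's FPKM. The added segment in chaetocin replicate 2 of nlp-40 (37.5 FPKM) and in chaetocin replicate 3 of nlp-71 (37.7 FPKM) is 1 short isoform each.

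Of 14 genes that process peptides 1 rose (7.14%, beside 8.45% of all tested genes), aex-5, a proprotein convertase needed for the defecation rhythm, at 12.4, 11.9 and 12.2 FPKM in DMSO and 15.3, 15.3 and 15.9 FPKM with chaetocin (log2 fold change 0.36 ± 0.052, limma adjusted p = 0.006575). The convertase egl-3 (-0.0055 ± 0.063) and the carboxypeptidase egl-21 (0.013 ± 0.051) had overlapping groups, as did the release factor unc-31 (-0.23 ± 0.30). Of 22 dense core vesicle genes 0 passed, 1 with an unadjusted p under 0.05 (limma). Of 98 peptide receptor genes 58 were tested and 1 rose (1.72%), frpr-5, at 1.25, 1.42 and 1.51 FPKM in DMSO and 15.9, 3.82 and 12.6 FPKM with chaetocin (2.66 ± 0.49, limma adjusted p = 0.01849). That call was lost without DMSO replicate 1 (0.07055), 2 (0.06484) or 3 (0.05183) or without chaetocin replicate 1 (0.05076) or 3 (0.06967). npr-22, the receptor of FLP-7, stood at 1.01, 0.96 and 1.11 FPKM in DMSO and 0.82, 0.83 and 0.96 FPKM with chaetocin, a receptor named after its values were seen.

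Downstream of the insulin-like peptides, 1 of 16 signalling genes rose (6.25%, beside 8.45% of all tested genes). This was the kinase gene akt-2, at 13.4, 12.7 and 14.1 FPKM in DMSO and 16.7, 16.3 and 17.3 FPKM with chaetocin (0.34 ± 0.053, limma adjusted p = 0.0095). The receptor daf-2 (-0.11 ± 0.067, limma adjusted p = 0.4122) and daf-16 (-0.15 ± 0.068, limma adjusted p = 0.2663) did not pass, though daf-16 passed without DMSO replicate 3 (-0.23, limma adjusted p = 0.02192). Of 6 other peptide hormone genes 0 passed and 1 had an unadjusted p under 0.05 (limma). Among them daf-28, an insulin-like gene outside the naming rule, had a log2 fold change of -0.37 ± 0.16 and pdf-1 one of 0.06 ± 0.046. Of the left-out nlp-27 to nlp-34, 7 of 8 were tested and 1 fell (14.3%, beside 8.45% of all tested genes), nlp-28 (-0.31 ± 0.066, limma adjusted p = 0.03526). Its call was lost on leaving out DMSO replicate 1 or 3 (limma adjusted p of 0.1241 and 0.08365) or chaetocin replicate 2 or 3 (0.1068 and 0.1114), and without the trend (0.08447).

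Markers of tissues that make these peptides are given for reference. Of 20 neuronal markers 0 passed and 2 had an unadjusted p under 0.05 (limma). Their median log2 fold change was -0.096, with 13 of 20 below 0. Their summed level was 596 to 634 FPKM in DMSO and 591 to 614 FPKM with chaetocin. In these sums snb-1 alone held 299 to 347 FPKM in DMSO and 316 to 322 FPKM with chaetocin. Of the other tissue lists, 0 of 13 body wall muscle, 0 of 11 pharyngeal, 0 of 11 epidermal, 0 of 17 germline and 0 of 5 coelomocyte and glial markers passed, with 0, 2, 2, 1 and 0 at an unadjusted p under 0.05 (limma). Below 0 were 8, 9, 10, 14 and 2 of these, with median log2 fold changes of -0.02, -0.20, -0.11, -0.06 and 0.09. Among 62 sperm genes 3 (ssp-16, ssp-31 and spe-47) rose (4.84%, beside 8.45% of all tested genes). An unadjusted p under 0.05 was found for 20 of the 62 (32.3%, limma), beside 20.4% of all tested genes. The sperm genes had a median log2 fold change of 0.16, with 53 of 62 above 0. The call of ssp-16 was lost on leaving out any of the 6 libraries (limma adjusted p from 0.0665 to 0.154) and with either other filter or scaling, and that of ssp-31 on leaving out any chaetocin library (0.05272, 0.06165 and 0.06232 for replicates 1 to 3). Both nlp-40 and ins-7 are made in the intestine. Of 11 intestinal markers 6 rose and 2 fell (72.7%, beside 8.45% of all tested genes). Their median log2 fold change was 0.24, with quartiles of -0.11 and 0.31, and 3 lay beyond 1 in either direction. Among these 3, act-5 was at 61.1 ± 7.89 FPKM in DMSO and 243 ± 7.81 FPKM with chaetocin, and mtl-2 at 771 FPKM and 134 FPKM. The summed intestinal level was 5807 to 6001 FPKM in DMSO and 5247 to 5748 FPKM with chaetocin. The part of these values in the changes of nlp-40 and ins-7 was not tested.

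**Figure D5:**
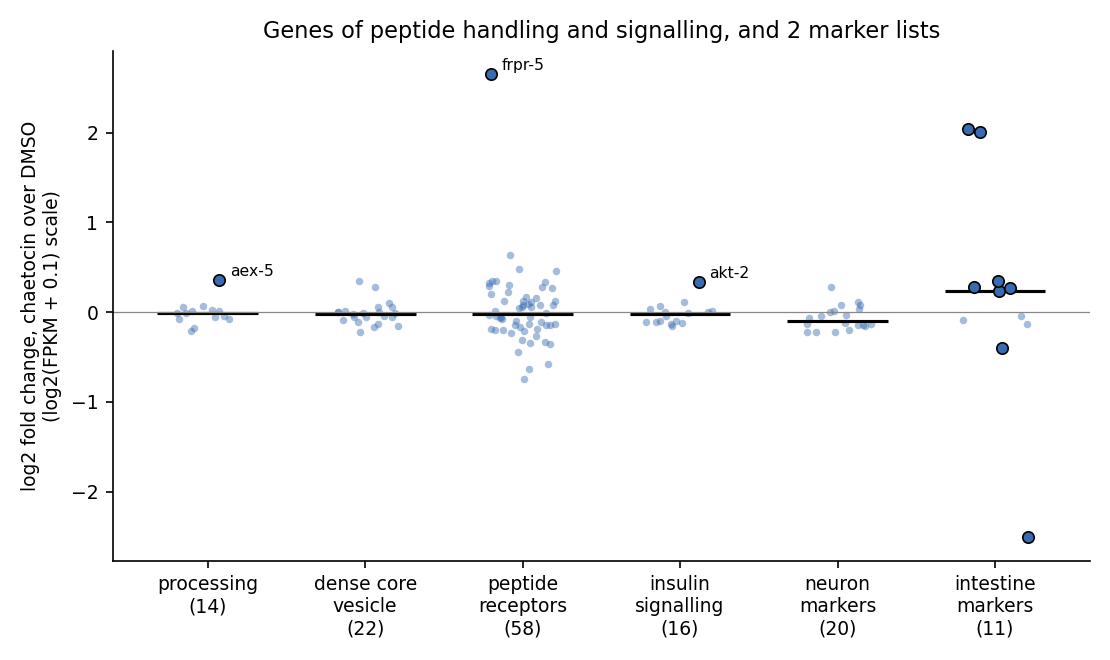
Log2 fold changes (chaetocin over DMSO, log2(FPKM + 0.1) scale) of the tested genes of 6 lists, with the number tested under each name. Lines are medians and outlined points passed the threshold. The intestinal list has 8 outlined points from -2.51 to 2.04, the neuronal list none.

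Members are spread unevenly over the genome. Of 31 flp genes 13 (41.9%) lie on chromosome X, which holds 13.6% of all tested genes, and 15 of 38 ins genes (39.5%) lie on chromosome II. Of the 38 ins genes 25 have another member within 10000 bases, against 3 of 31 flp and 6 of 67 nlp genes. Around the 8 genes that passed, 25 other tested genes lie within 10000 bases. Of these 25, 0 passed, beside 8.45% of all tested genes, and 5 had an unadjusted p under 0.05 (limma), beside 20.4%.

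The authors' deposited table of their own comparison, whose p-values were read as adjusted, gives p under 0.05 for 6 members, 4.92% of the members it lists, against 9.06% of its 16062 genes. Of the 8 members past the threshold above, 5 were also past it there: nlp-26, nlp-40, nlp-77, ins-7 and ins-35. For flp-7, flp-10 and ins-9 the authors' deposited table gives p of 0.0808, 0.1513 and 0.0677. The sixth there is ins-31, with a log2 fold change of 5.87 in the authors' deposited table (p = 0.001156) and a mean normalized signal of 5.85. It was listed at 0, 0 and 0.06 FPKM in DMSO and 0.88, 0.21 and 1.91 FPKM with chaetocin, under the filter used here.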

How the data were processed

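RNA of 6 libraries of whole animals was compared, 3 with chaetocin and 3 with DMSO, grouped by their treatment labels. The authors deposited FPKM per gene and per transcript, whose values fit FPKM although the tables are called raw. Per the submitters' processing notes the tools were RSEM 1.3.1, STAR 2.7.9a, MultiQC, FastQC 0.11.4 and Trimmomatic 0.36, and the genome was WBcel235. RSEM divides fragments shared by isoforms and near-identical genes by estimation. The sources used here give neither annotation release nor strand setting. The deposited comparison by the authors gives log2 fold changes and p-values with their SE (a score here), and a mean normalized signal per gene over all libraries. Its sign was turned so that positive means higher with chaetocin.

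Genes reaching 0.5 FPKM in 3 or more libraries were kept, and a trimmed mean of log ratios without weights scaled the libraries. The test was limma 3.58.1 (R 4.3.3) with a mean-variance trend on log2(FPKM + 0.1), 2-sided, with Benjamini-Hochberg adjustment over all tested genes and a threshold of 0.05. This scale understates changes of low genes. Overlap between groups was counted on scaled FPKM and, as an alternative added after seeing the data, on FPKM as deposited. Printed FPKM are as deposited, ± after FPKM is the SD and ± after a log2 fold change its SE. Depth per library is unknown, so no counting interval is given. The fit was tested on simulated data. Members and lists were chosen with earlier results of these data known. The rule for named genes took all members past the threshold, the 6 most abundant and the 3 with the largest fold change per family, 14 members with known roles, up to 4 called genes per other list and 8 fixed pathway genes. Positions are from Ensembl release 115. Alternatives were other pseudocounts (0.01 and 1), filters, scalings, no trend, a replicate block and leaving out each library.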

Additional observations from a re-analysis of the deposited data

How the results depend on the processing

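Of the 8 peptide genes past the threshold, ins-35, nlp-26, nlp-40 and nlp-77 passed under all 14 alternatives, with highest adjusted p of 0.001623, 0.002494, 0.02717 and 0.04205 (limma). ins-9 was under the stricter filter. Whether the replicate numbers pair the samples was not settled. Same-numbered libraries had deviations correlated at 0.106, 0.0668 and -0.0265, the first being the highest of all pairs. DMSO replicate 3 correlated best with chaetocin replicate 2 (0.078). Deviations from a mean of 3 libraries depend on each other, so these correlations cannot decide it. Library titles number the DMSO samples 1, 3 and 4, so by title DMSO replicate 2 would share a number with chaetocin replicate 3 (-0.0155), and the block below uses the labels' replicate numbers. With a replicate block, 255 genes were lower instead of 444, 2 members were lower, and 0 flp genes, 0 processing and vesicle genes, 0 insulin signalling genes and 1 isoform passed, with flp-7, flp-10 and ins-7 at adjusted p of 0.0919, 0.1001 and 0.0604 and nlp-28 at 0.05775 (limma). Without the trend, 3 peptide receptors and 1 isoform passed. On unscaled FPKM egl-21 was at -0.00265. The causes were not tested.

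When 1 library was left out, 274 to 510 genes were lower, 2 to 4 members were lower (2 without DMSO replicate 2), with flp-15, nlp-60, nlp-12 and ins-12 passing without DMSO replicate 1, DMSO replicate 3, chaetocin replicate 1 and chaetocin replicate 3, and 0 to 2 flp genes, 0 to 1 peptide receptors, 1 to 3 insulin signalling genes (3 without DMSO replicate 3) and 1 to 2 isoforms (1 on leaving out any 1 chaetocin replicate) passed. The nlp median ran from -0.00482 to 0.0526. Fold changes near 0 changed sign in egl-21 (-0.0156 to 0.0512), egl-3 (-0.046 to 0.0406), flp-11 (-0.0506 to 0.0131), flp-12 (-0.0108 to 0.15), flp-14 (-0.111 to 0.0197), flp-18 (-0.000454 to 0.0731), flp-9 (-0.0121 to 0.0663), ins-1 (-0.265 to 0.000183), ins-17 (-0.119 to 0.052), ins-27 (-0.136 to 0.216), ins-4 (-0.232 to 0.131), nlp-49 (-0.0201 to 0.0536) and unc-31 (-0.453 to 0.0833). Of 782 single-gene values, 712 kept direction and side of the threshold. The gene nlp-71, overlap on FPKM as deposited (25 members instead of 29) and the values without 1 isoform were chosen after seeing the data: the log2 fold change of nlp-71 was 0.74, and 0.05 without its short isoform. Unknown depth limits what can be said of genes at or near 0.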
